A study of Mus musculus with 10 samples.

Results

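The Wnt modulators and targets followed here in the old mouse inner ear were 10 genes. Among them were the secreted antagonists Notum, Dkk2, Sfrp4, Sfrp5 and Frzb, and Dkk3, which encodes a divergent Dickkopf protein. The others were the secreted activator Rspo3, the receptors Lgr5 and Lgr6, and the feedback target Axin2. All 10 were taken by symbol from the 32285 genes in the feature tables, and not by a cut on their values. All groups were wild-type CBA/J mice aged 22 months, a strain in which hearing loss comes late, and 7 to 8 mice were pooled for each library of whole cochleae or whole vestibular organs. No treatment was given, both sexes were used without being separated, and with a single age none of the values is a change with age. The cells were captured by droplet and counted by unique molecular identifiers (UMIs), with 4 libraries per organ (replicates 1, 3, 4 and 5).

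Wnt ligands are secreted proteins that bind Frizzled receptors and LRP co-receptors and so stabilise β-catenin, which with TCF/LEF factors switches on target genes. Secreted antagonists act outside the cell: NOTUM removes the lipid that Wnt ligands need, the SFRP family and FRZB bind the ligands, and DKK2 occupies the LRP co-receptor. R-spondins act in the other direction, by binding LGR receptors and sparing Frizzled from turnover. In the cochlea, LGR5 is known as a marker of supporting cells that retain some capacity to form hair cells (HCs) in young animals, and AXIN2 is a widely used readout of the pathway.

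The 8 libraries held 2738036 to 26974948 UMIs, and 7272 cochlear and 10424 vestibular cells were kept. Replicate 3 supplied 5070 of the cochlear and 5438 of the vestibular cells. Replicate 2 of each organ held the same barcodes as replicate 1 (1313 of 1313 in the cochlea and 1633 of 1641 in the vestibule), differed from it by less than the sampling noise and was not counted. Other pairs of libraries shared at most 41 barcodes. Although the labels name the sensory epithelium, clusters with mesenchymal markers made up 2564 cochlear and 3936 vestibular cells. Clusters were formed without the 10 genes and without 76 other Wnt genes, and were then classed by fixed markers as HC-like, nonsensory epithelial (including a supporting-cell-like subset) or mesenchymal. All 6 HC markers were enriched in each of the 2 cochlear and 5 vestibular HC-like clusters. Each is named below by its leading genes. The values are UMIs of a gene per 1000000 UMIs (CPM) of a cluster or class in a library, with the mean ± SD over libraries. Macrophage-like cells were taken as a type that should lack these genes, to show the background of free RNA. In them the 10 genes averaged 0 to 5.63 CPM in the cochlea and 0 to 30.04 CPM in the vestibule, the highest in the vestibule being Frzb, followed by Dkk3 (29.1 CPM).

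**Figure D1:**
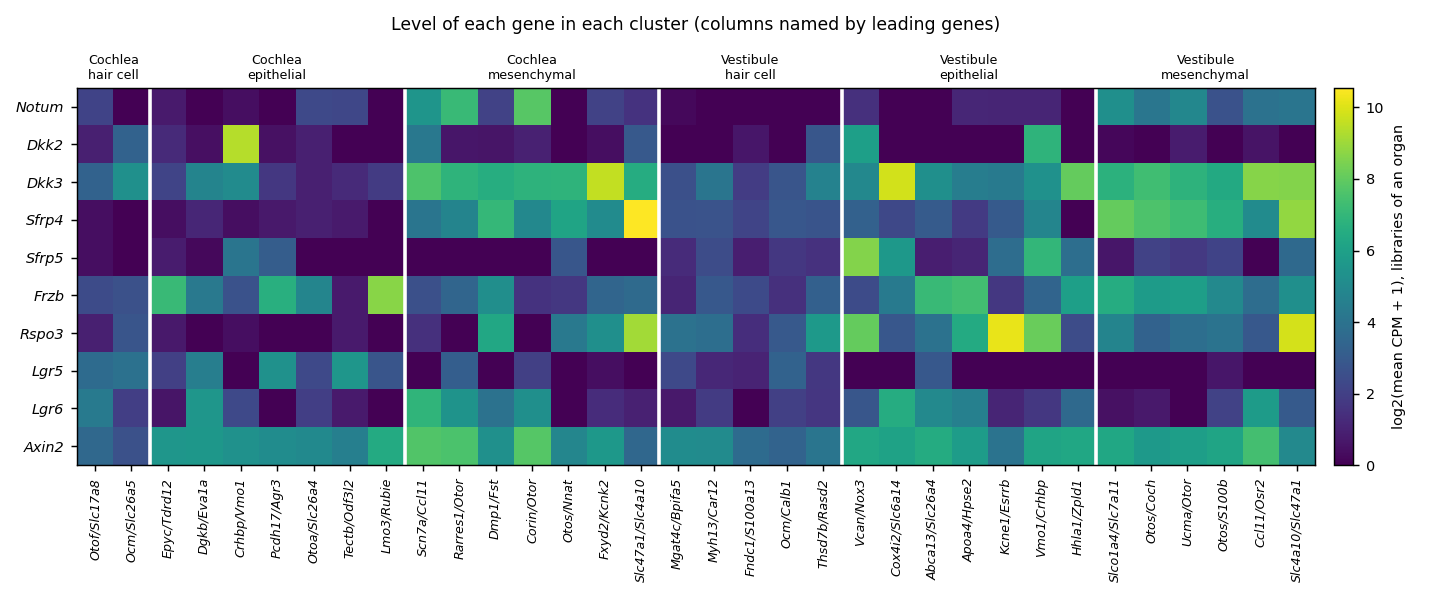
Mean level of the 10 genes (rows, log2 of mean CPM + 1 over the libraries of an organ) in the 34 clusters classed as hair cell, epithelial or mesenchymal (columns, named by leading genes, white lines between classes). Dkk2 is bright in the cochlear Crhbp/Vmo1 cluster, Rspo3 in Kcne1/Esrrb and in Slc4a10/Slc47a1 of the vestibule, and Axin2 is above 0 in every column.

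Among the antagonists, Notum was a mesenchymal transcript and was highest in the cochlea. In the Corin/Otor cluster, which carried markers of tympanic border cells, it reached 299, 160, 236 and 204 CPM in replicates 1, 3, 4 and 5 (225 ± 58.6, n = 4). The Rarres1/Otor cluster followed with 112, 134, 174 and 138 CPM (140 ± 25.9, n = 4), and its range overlapped that of the first. All libraries of both clusters lay above the Scn7a/Ccl11 cluster, at 19.7 to 72.6 CPM. The vestibular Slco1a4/Slc7a11 and Ucma/Otor mesenchymal clusters came next at 37.2 ± 18.7 and 28.7 ± 17.0 CPM (SD, n = 4), and neither was separated from Scn7a/Ccl11.

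Of the 968 cochlear Notum UMIs, 73.7% came from the Corin/Otor cluster, which held 235 cells and 11.95% of all cochlear UMIs. Its cells had a median of 11348 UMIs, against 1381 to 4766 in the other cochlear mesenchymal clusters, and 2 of 7 bone or cartilage, 2 of 6 endothelial and 2 of 7 mural markers were also enriched in it. The part of these in its Notum level was not tested. A Notum UMI was found in 73.2% of its cells (95% exact binomial interval 67.0 to 78.7) and in 22.6% of Rarres1/Otor cells (19.5 to 26.0). After thinning to 1000 UMIs a cell, 14.9% and 12.9% held one, while no UMI was seen in 326 cochlear macrophage-like cells (median 2226.5 UMIs), which allows up to 3.23 CPM. Notum lies on chromosome 11 (120653788 to 120661175, minus strand, GRCm38) and shares 120659157 to 120661175 with the antisense gene Notumos. The libraries were made with a 3' kit, and the 3' ends of both genes lie outside the shared stretch. Any effect of the overlap on the counts of the pair was not tested.

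Dkk2 was concentrated in 1 cochlear cluster. In the cochlear Crhbp/Vmo1 epithelial cluster, named from Reissner's membrane markers (Vmo1, Slc26a7, Meis2), it reached 602, 797, 448 and 795 CPM (660 ± 169, n = 4), and 963 of the 1028 cochlear Dkk2 UMIs (93.7%) came from these 374 cells. The corresponding vestibular Vmo1/Crhbp cluster gave 206, 83.2, 42.8 and 125 CPM (114 ± 69.8, n = 4), so that all cochlear values lay above all vestibular ones. The vestibular Vcan/Nox3 cluster, the largest nonsensory epithelial cluster there with 788 cells, followed at 25.7 to 105 CPM and overlapped Vmo1/Crhbp. A UMI was present in 70.6% of cochlear Crhbp/Vmo1 cells (65.7 to 75.2; 43.9% after thinning) and in 1.84% of cochlear macrophage-like cells.

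Dkk2 and Frzb are shown with the 250 bases before their RefSeq starts (GRCm38.p6), because among the 5 of the 10 genes with an entry in the promoter table only these held the TCF/LEF core CTTTG on either strand. The core, or its reverse complement CAAAG, is in capitals, and both sequences read along the gene's own strand. For Dkk2 the window is chr3:132085042-132085291 (plus strand), and for Frzb chr2:80447397-80447646 (minus strand). GENCODE M21 puts the start of Frzb at 80447625, so most of its window, with the core, lies inside the gene as annotated there.
Dkk2: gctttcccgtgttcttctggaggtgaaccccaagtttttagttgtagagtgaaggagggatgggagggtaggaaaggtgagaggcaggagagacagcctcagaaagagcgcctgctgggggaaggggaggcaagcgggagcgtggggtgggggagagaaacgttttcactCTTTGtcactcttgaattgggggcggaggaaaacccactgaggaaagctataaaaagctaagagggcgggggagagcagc
Frzb: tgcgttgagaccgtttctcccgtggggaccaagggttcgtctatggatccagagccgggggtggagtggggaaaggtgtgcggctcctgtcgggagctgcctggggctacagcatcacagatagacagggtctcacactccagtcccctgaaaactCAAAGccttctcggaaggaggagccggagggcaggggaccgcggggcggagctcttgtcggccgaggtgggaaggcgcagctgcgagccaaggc
The core starts 80 bases before the RefSeq start in Dkk2 and 94 bases before that in Frzb, and 48.6% of the 32851 windows in the table hold the core. The longer forms CTTTGAA or CTTTGAT, and CTTTGTA or CTTTGTT, each of which contains the core, were searched on both strands and were in none of the 5 windows (Dkk2, Sfrp5, Lgr6, Axin2, Frzb), while 14.8% of all windows hold at least 1 of them.

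Dkk3, a divergent Dickkopf protein, was found in epithelial, mesenchymal and pigment-cell-like clusters. It was highest in the vestibular Cox4i2/Slc6a14 supporting-cell-like cluster, with 1052, 761, 918 and 865 CPM (899 ± 121, n = 4). The cochlear Fxyd2/Kcnk2 cluster gave 1095, 568, 830 and 570 CPM (766 ± 252, n = 4), and its range overlapped that of Cox4i2/Slc6a14. This cochlear cluster entered the mesenchymal class with the minimum of 3 enriched markers, and Dkk3 is therefore given with and without it. All of its libraries lay above the next cluster, vestibular Ccl11/Osr2, at 252 to 551 CPM. Dkk3 was also high in cells outside these classes: in the pigment-cell-like Dct/Slc45a2 and Dct/Syt4 clusters it averaged 666 CPM (2 libraries) in the cochlea and 477 ± 41.1 CPM (n = 4) in the vestibule.

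Sfrp4 was mesenchymal in both organs. Its highest level was in the cochlear Slc47a1/Slc4a10 cluster, with 2114 and 888 CPM in the only libraries with at least 5 of its cells (replicates 1 and 3; 166 of the 176 cells were of replicate 3). In the vestibule the counterpart Slc4a10/Slc47a1 gave 153, 517, 219 and 946 CPM, a wide spread in a cluster of 93 cells. The large Slco1a4/Slc7a11 cluster was more even, at 323, 272, 237 and 233 CPM (266 ± 41.6, n = 4), and stood above Otos/Coch (161 to 210 CPM) in every library. A UMI was present in 34.8% of Slco1a4/Slc7a11 cells (32.4 to 37.3; 18.7% after thinning) and in 2.98% of vestibular macrophage-like cells.

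Sfrp5 was highest in 3 vestibular epithelial clusters. In Vcan/Nox3 it reached 516, 393, 279 and 346 CPM (384 ± 99.99, n = 4), above every library of the next cluster, and 667 of the 968 vestibular UMIs (68.9%) came from it. Vmo1/Crhbp gave 0, 203, 192 and 106 CPM, the 0 being from 16 cells of replicate 1, and Cox4i2/Slc6a14 gave 108, 29.3, 33.2 and 22.8 CPM. In the cochlea only 69 Sfrp5 UMIs were counted in all kept cells, 33 of them in Crhbp/Vmo1. The share of Vcan/Nox3 cells with a UMI was 34.6% (31.3 to 38.1; 23.5% after thinning) against 0.542% of macrophage-like cells.

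Frzb, which encodes SFRP3, was epithelial in the cochlea and shared by epithelial and mesenchymal cells in the vestibule. The Epyc/Tdrd12 epithelial cluster of the cochlea varied little between libraries, with 132, 158, 137 and 144 CPM (143 ± 11.3, n = 4), and supplied 564 of the 1119 cochlear UMIs. A higher mean in Lmo3/Rubie (405 CPM) rested on replicate 1, with 959 CPM from 10 cells, against 158 and 98.1 CPM in replicates 3 and 4. The vestibular Apoa4/Hpse2 and Abca13/Slc26a4 epithelial clusters averaged 164 ± 81.3 and 143 ± 53.3 CPM (SD, n = 4) and were not separated from Epyc/Tdrd12. In vestibular mesenchyme, Slco1a4/Slc7a11 held 92.0 ± 21.1 CPM (SD, n = 4). The level in vestibular macrophage-like cells reached 98.9 CPM in replicate 1, which had 12 such cells.

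Rspo3, the activator among the secreted genes, was high in the same mesenchymal pair of clusters as Sfrp4 and also in vestibular epithelium. The Kcne1/Esrrb cluster of the vestibule, with markers of dark cells, gave 1000.3, 1068, 1402 and 1254 CPM (1181 ± 182, n = 4). Vestibular Slc4a10/Slc47a1 followed at 764 to 1213 CPM (947 ± 213, n = 4) and overlapped it. Cochlear Slc47a1/Slc4a10 came next, with 497 and 586 CPM in replicates 1 and 3, below every library of those 2 clusters. Vestibular Vmo1/Crhbp averaged 281 CPM with a wide spread, from 0 to 578 CPM over its 4 libraries. Vestibular Vcan/Nox3 gave 262 ± 77.6 CPM (SD, n = 4) and the Apoa4/Hpse2 cluster 87.3 ± 31.6 CPM (SD, n = 4). The nonsensory epithelial class of the cochlea held 8 Rspo3 UMIs in 2733 cells. The share of Kcne1/Esrrb cells with a UMI was 58.6% (49.6 to 67.2; 45.3% after thinning) and that of vestibular macrophage-like cells 1.08%.

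**Figure D2:**
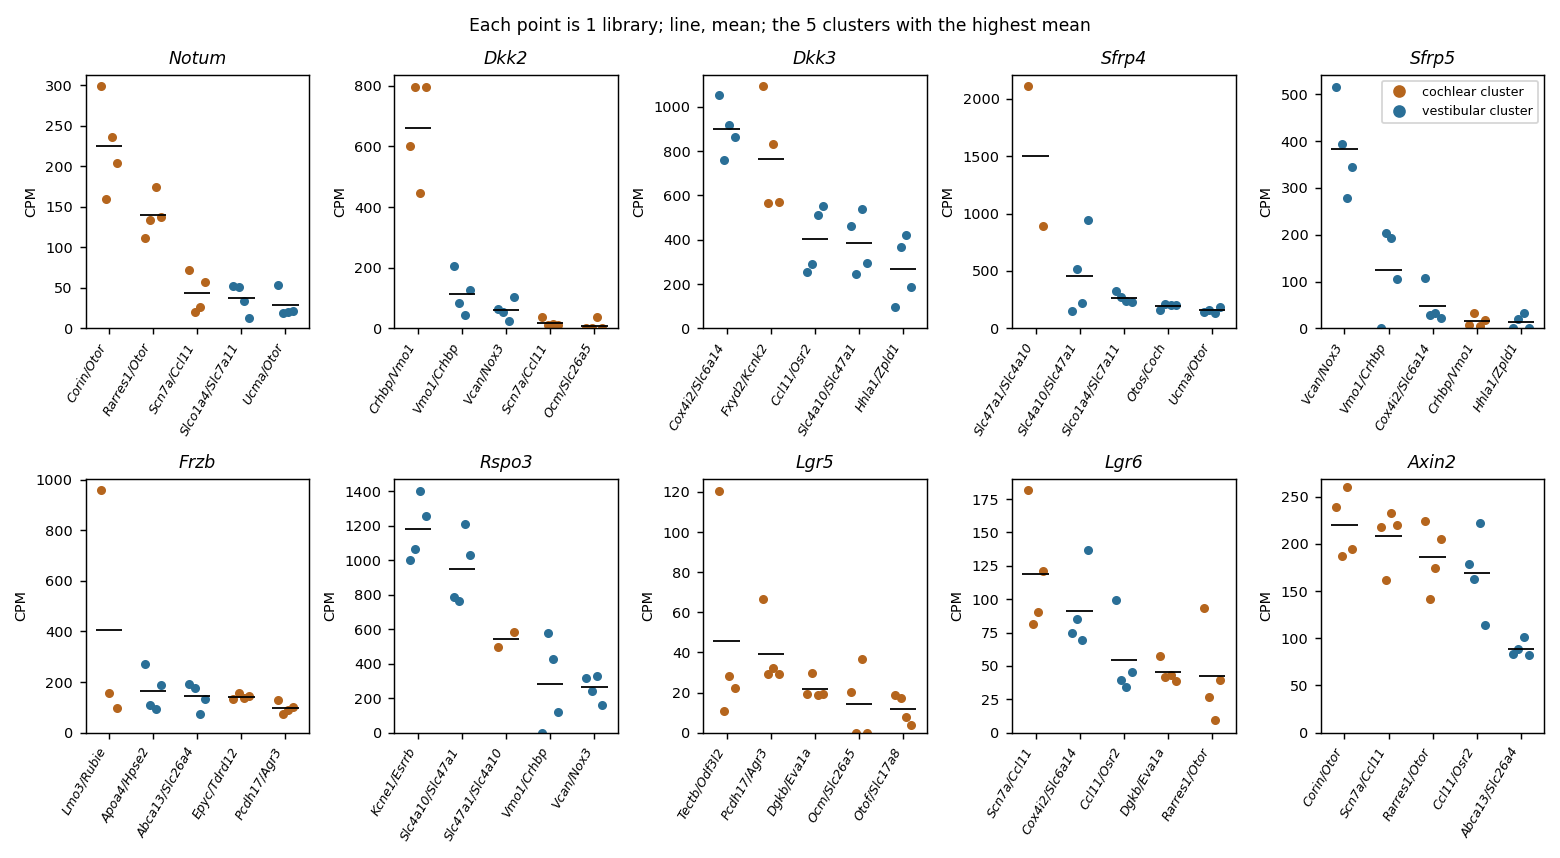
CPM of each gene (y axes, linear, from 0) in the 5 clusters with its highest mean (x axes); each point is 1 library, in the order of the replicate numbers, brown for cochlear and blue for vestibular clusters, and the line is the mean. The Frzb point at 959 and the Sfrp4 point at 2114 are replicate 1 of small clusters, while the 4 Epyc/Tdrd12 points of Frzb lie together.

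The receptor genes gave few UMIs. Lgr5 was counted 416 times in all kept cells, 353 of them cochlear. The cochlear supporting-cell-like clusters led, with 121, 10.99, 28.2 and 22.1 CPM in Tectb/Odf3l2 (15 UMIs in all), 66.7, 29.3, 32.1 and 29.1 CPM in Pcdh17/Agr3 and 19.0, 29.9, 18.8 and 19.3 CPM in Dgkb/Eva1a. These 3 clusters overlapped each other. The neuron-like Cntnap5a/Syt2 cluster held another 100 UMIs (33.3 ± 16.3 CPM, n = 4), as many as Pcdh17/Agr3. A UMI was found in 24.2% of Pcdh17/Agr3 cells (19.5 to 29.4; median 6806.5 UMIs) and in 4.19% after thinning. It was not seen in 326 cochlear and 369 vestibular macrophage-like cells, which allows up to 3.23 and 1.85 CPM.

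Lgr6 was shared by mesenchymal and supporting-cell-like cells. It was highest in the cochlear Scn7a/Ccl11 cluster, with 182, 81.2, 90.5 and 121 CPM (119 ± 45.3, n = 4), where replicates 1 and 4 rest on 5 and 7 UMIs. Vestibular Cox4i2/Slc6a14 gave 74.4, 85.2, 69.4 and 137 CPM (91.4 ± 30.8, n = 4) and overlapped it. Vestibular Ccl11/Osr2 held 54.6 ± 30.2 CPM and cochlear Dgkb/Eva1a 45.1 ± 8.21 CPM (SD, n = 4 each). In the vestibule 211 Lgr6 UMIs (43.2%) came from the mixed Tectb/Corin cluster, which had markers of HCs and supporting cells and was left out of the classes. Macrophage-like cells stayed below 1 CPM on average in both organs, at 0.316 and 0.864 CPM.

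Axin2, the feedback target, was counted in all 34 clusters. Cochlear mesenchyme led, with 239, 188, 260 and 194 CPM in Corin/Otor, 218, 161, 233 and 220 CPM in Scn7a/Ccl11 and 224, 142, 174 and 205 CPM in Rarres1/Otor, and vestibular Ccl11/Osr2 followed at 179, 163, 222 and 114 CPM. These 4 clusters overlapped each other, and every library of them was above the next cluster, vestibular Abca13/Slc26a4 (82.2 to 101 CPM). The lowest of the 34 cluster means was 5.05 CPM. Vestibular macrophage-like cells held 19.0 ± 14.7 CPM (SD, n = 4), which is near the 21.9 ± 3.19 CPM of vestibular HC-like cells, so Axin2 in the latter was not separated from background.

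Some clusters led for more than 1 gene. Corin/Otor, Rarres1/Otor and Scn7a/Ccl11 of the cochlea were the 3 highest for Notum and for Axin2, and Scn7a/Ccl11 was the highest for Lgr6. The Slc47a1/Slc4a10 pair carried both Sfrp4 and Rspo3, an antagonist and an activator. Over the 34 clusters of both organs, the genes outside the list with the most similar pattern (Pearson r of log2(CPM + 1)) were Robo2 (0.85), Ccl19 (0.84) and Notumos (0.83) for Notum, Tnfsf13os (0.90), Npy1r (0.90) and Serpinf1 (0.89) for Sfrp4, and Pros1 and Gfpt2 (both 0.845) and Gpm6b (0.83) for Dkk3. For Axin2 they were Nrbp2 and Pcdhb14 (both 0.80) and Tnfrsf19 (0.77), the last of which is itself on the list of Wnt targets. Dkk2 was matched by Krt17, Gm10220 and Pax5 (0.77 to 0.78), Lgr5 by Rhov, Mocs2 and Gm12207 (0.77 to 0.78), Sfrp5 by Krt7, Fut9 and Cited1 (0.73 to 0.77), and Rspo3 by Gas6, Ctxn3 and Rnf152 (0.72 to 0.77). The matches of Lgr6 (Gm26771, Atrnl1, Sfrp2) and Frzb (Spg20, Pabpc1, Rcsd1) were 0.68 to 0.71. The clusters share libraries and differ in depth, so these are descriptions.

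To compare the epithelium with the mesenchyme, UMIs were summed per library and class and tested over all genes with edgeR's quasi-likelihood test, with the library as a block and Benjamini-Hochberg adjustment at 0.05. The fitted fold changes use library sizes scaled by TMM and so are not the plain ratios of the CPM values. In the cochlea the 2 compartments carried different genes. Dkk2, Lgr5 and Frzb were higher in nonsensory epithelial cells, and Notum, Sfrp4, Rspo3, Dkk3, Axin2 and Lgr6 in mesenchymal cells. Thus 9 of the 10 genes were called, where 55.3% of the 10783 genes tested were called in either direction, 28.2% higher in epithelial and 27.2% higher in mesenchymal cells. Sfrp5 was too low for the test (4.19 ± 1.24 against 0.329 ± 0.659 CPM, n = 4). A gene that is low in 1 class passes the filter only through the other, so the count of calls is not a finding about the list.

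Notum was at 0.719 ± 0.261 CPM in cochlear epithelial and 103 ± 39.0 CPM in mesenchymal cells (n = 4 each), a log2 fold change of -7.18 (SE 0.23, edgeR adjusted p = 1.69e-10). Sfrp4 followed (-6.88, SE 0.29), with 0 to 2.07 CPM in the epithelial sums and 36.0 to 120 CPM in the mesenchymal ones. Dkk3 fell from 171 to 584 CPM in mesenchymal to 4.48 to 25.9 CPM in epithelial sums (log2 fold change -4.78, SE 0.22), and without the Fxyd2/Kcnk2 cluster the log2 fold change was -3.70. For Rspo3 the mesenchymal sums were 10.3 to 63.9 CPM and the epithelial ones at most 1.17 CPM (-5.86, SE 0.36). The Rspo3 difference became -7.71 without replicate 3, and without Fxyd2/Kcnk2 the gene was too low for the test.

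The genes higher in cochlear epithelium were separated as cleanly in these sums. Dkk2 had 34.2 to 99.2 CPM in the epithelial and 1.14 to 3.79 CPM in the mesenchymal sums (log2 fold change 4.90, SE 0.19, edgeR adjusted p = 3.2e-10). Of its 973 epithelial UMIs, 963 came from the Crhbp/Vmo1 cluster, so the higher level belongs to that cluster and not to the class at large. The other cochlear epithelial clusters averaged at most 1.42 CPM, and the test was not repeated without Crhbp/Vmo1. Frzb had 89.9 ± 23.7 against 8.37 ± 4.58 CPM (n = 4 each, 3.59, SE 0.17). Lgr5 had 20.7 ± 12.5 against 2.31 ± 1.39 CPM (n = 4 each, 2.92, SE 0.35). Axin2 and Lgr6 differed less, with log2 fold changes of -1.81 (SE 0.16) and -1.47 (SE 0.19). The libraries did not overlap between the classes for any of these 5 genes. The share of all genes without overlap was not counted, so this is not a finding about the list. Without Corin/Otor the change of Notum was -5.80 and that of Axin2 -1.29.

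The vestibule gave another arrangement. Sfrp5, Rspo3, Lgr6 and Dkk3 were higher in epithelial cells, and Notum, Sfrp4, Axin2 and Frzb in mesenchymal cells: 8 of the 10 genes were called, against 44.6% of 10346 genes in either direction, 23.7% higher in epithelial and 20.9% higher in mesenchymal cells. Dkk2 (28.5 ± 20.3 against 0.233 ± 0.271 CPM, n = 4 each) and Lgr5 (15 UMIs against 1) were too low for the test. As in the cochlea, the count of calls is not a finding about the list.

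Sfrp5 had 75.4 to 157 CPM in vestibular epithelial sums and 0 to 4.05 CPM in mesenchymal ones (log2 fold change 5.19, SE 0.28, edgeR adjusted p = 2.84e-10). Rspo3 had 106, 196, 184 and 168 CPM in epithelial and 36.6 to 63.8 CPM in mesenchymal sums, or 164 ± 40.1 against 53.7 ± 12.02 CPM (n = 4 each, 1.40, SE 0.18), and Lgr6 34.1 ± 9.09 against 9.54 ± 6.75 CPM (n = 4 each, 1.72, SE 0.23). Neither overlapped between the classes, but the share of all genes without overlap was not counted. On the mesenchymal side Sfrp4 had 191 ± 12.4 against 7.78 ± 7.57 CPM (n = 4 each, -4.56, SE 0.26) and Notum 25.7 ± 10.03 against 0.871 ± 1.03 CPM (n = 4 each, -4.57, SE 0.35). Without replicate 3 these 2 changes were -5.55 and -5.26.

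The other 3 calls in the vestibule were small and their classes overlapped. Axin2 changed by -0.56 (SE 0.13, edgeR adjusted p = 0.00278), Frzb by -0.53 (SE 0.14, edgeR adjusted p = 0.0057) and Dkk3 by 0.37 (SE 0.12, edgeR adjusted p = 0.02) on the log2 scale. The call of Dkk3 was lost without replicate 1 (edgeR adjusted p = 0.135), without the block (0.117), by DESeq2 (0.104) and with the 2 clusters of a single library kept (0.207), and that of Frzb without the block (0.127) and by DESeq2 (0.0605).

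The change from mesenchymal to epithelial cells differed between the organs for 7 of the 10 genes (edgeR test of organ by class, chosen after the results above were seen, where 30.6% of 11817 genes were called): Rspo3, Dkk3, Lgr6, Notum, Sfrp4 and Axin2 were more mesenchymal in the cochlea than in the vestibule, and Frzb more epithelial. For Notum, with 7 and 9 UMIs in the epithelial sums of the cochlea and vestibule, the call was lost without Corin/Otor (-1.15, edgeR adjusted p = 0.258), without replicate 3 (-1.83, 0.391) and without replicate 4 (-2.32, 0.0605). That of Sfrp4 was lost without replicate 3 (-1.19, 0.425). For Rspo3 and Lgr6 both organs had a call of their own in opposite directions, and so did Frzb and Dkk3, within the limits given above for their vestibular calls.

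**Figure D3:**
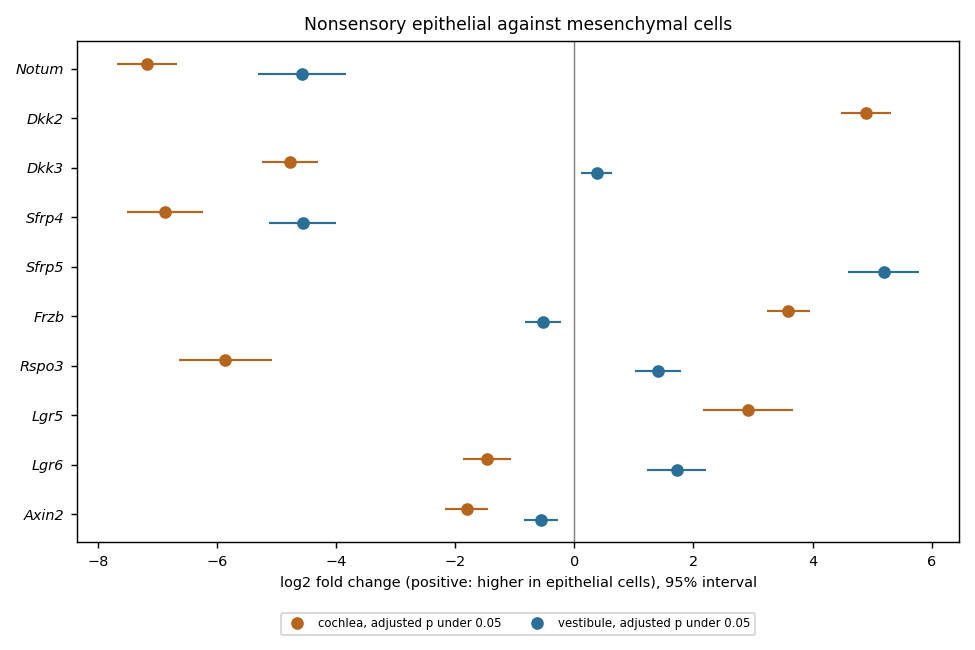
Log2 fold change of nonsensory epithelial against mesenchymal cells (x axis, positive: higher in epithelial cells; bars, 95% interval) for each gene (y axis) in the cochlea (brown) and the vestibule (blue), with filled points for an adjusted p under 0.05 and no point where the gene was too low for the test. Rspo3 and Lgr6 lie left of 0 in the cochlea and right of it in the vestibule, and Frzb the reverse.

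The organs were compared next within supporting-cell-like cells, of which the cochlea had 1249 and the vestibule 551, in 4 and 2 clusters that are not the same types. Dkk3, Sfrp5 and Lgr6 were higher in the vestibule, and Lgr5 and Frzb in the cochlea. The 5 calls stand against 28.2% of 8176 genes in either direction, 12% higher in the cochlea and 16.1% higher in the vestibule. As in the epithelial comparisons, the count of calls is not a finding about the list. Notum, Dkk2, Sfrp4 and Rspo3 were too low for the test, with at most 12 UMIs in a class.

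Dkk3 had 12.6, 11.9, 7.68 and 12.4 CPM in cochlear and 865, 716, 784 and 808 CPM in vestibular replicates 1, 3, 4 and 5 (log2 fold change -6.05, SE 0.25, edgeR adjusted p = 3.96e-12). Lgr5 had 53.3, 26.7, 22.3 and 23.7 CPM in cochlear replicates 1, 3, 4 and 5 and not a single UMI in 551 vestibular cells, where 3 UMIs over the class would be 1.58 CPM. The cochlear mean of 31.5 CPM was 19.9-fold that limit. With the limit recomputed it was 12.4-fold without replicate 1 and 11.2-fold without replicate 3. With no vestibular UMI, Lgr5 passed the filter only through the cochlea, so its call (edgeR adjusted p = 6.73e-06) adds no separate support. Sfrp5 had 3.73 ± 1.29 against 42.3 ± 30.3 CPM (n = 4 each, -3.42, SE 0.42), the vestibular mean being 27.4 CPM without replicate 1, and Lgr6 16.3 ± 2.76 against 80.0 ± 31.4 CPM (n = 4 each, -2.13, SE 0.28). Frzb had 77.4 ± 45.5 against 26.6 ± 11.8 CPM (n = 4 each, 1.44, SE 0.35, edgeR adjusted p = 0.00382), the cochlear mean being 55.0 CPM without replicate 1. Its vestibular level was not above the mean of vestibular macrophage-like cells given above, and so was not separated from background. No library of these 5 genes overlapped between the organs. The share of all genes without overlap was not counted, so this is not a finding about the list.

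Axin2 in supporting-cell-like cells was at 42.5 ± 17.1 CPM in the cochlea and 68.8 ± 6.86 CPM in the vestibule (n = 4 each, log2 fold change -0.68, 95% interval -1.22 to -0.15, edgeR adjusted p = 0.0532), just short of a call. It was called without replicate 1 (-0.90, edgeR adjusted p = 0.00761), with the mean of replicates 1 and 2 (0.0483) and at a clustering resolution of 0.5 (0.0456), and the adjusted p ranged up to 0.341 over the alternatives. With the replicate number as a block Axin2 was called too, as given in the closing section.

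Within mesenchymal cells, Notum, Lgr6 and Axin2 were higher in the cochlea, and Sfrp4 and Frzb in the vestibule. These 5 calls stand against 17.7% of 10447 genes in either direction, 9.08% higher in the cochlea and 8.66% higher in the vestibule. For the reason given for the epithelial comparison of the cochlea, this count is not a finding about the list either. Dkk2, Sfrp5 and Lgr5 were too low for the test. Frzb had 8.37 ± 4.58 CPM in the cochlea and 61.0 ± 12.8 CPM in the vestibule (n = 4 each, log2 fold change -3.29, SE 0.24, edgeR adjusted p = 1.23e-07). Sfrp4 had 36.0 to 120 against 179 to 203 CPM (-1.59, SE 0.31, edgeR adjusted p = 0.00134), and Lgr6 18.9 to 42.7 against 3.53 to 18.9 CPM (1.69, SE 0.36, edgeR adjusted p = 0.003), where 1 library of each organ overlapped.

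Notum had 74.8 to 159 CPM in cochlear and 13.3 to 36.6 CPM in vestibular mesenchyme (log2 fold change 1.80, SE 0.29, edgeR adjusted p = 0.000281). This call rested on the Corin/Otor cluster, which held 37.9% of the cochlear mesenchymal UMIs: without it the change was 0.38 (edgeR adjusted p = 0.474). Axin2 had 148 ± 30.7 against 80.3 ± 10.5 CPM (n = 4 each, 0.63, SE 0.19, edgeR adjusted p = 0.032), and without Corin/Otor 0.07 (edgeR adjusted p = 0.918). The Axin2 call was also lost without replicate 3 (edgeR adjusted p = 0.0802), 4 (0.0784) or 5 (0.183).

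Dkk3 and Rspo3 did not pass the threshold in mesenchymal cells. Dkk3 had 317 ± 184 against 171 ± 33.2 CPM (n = 4 each, log2 fold change 0.58, 95% interval -0.03 to 1.19, edgeR adjusted p = 0.206). Its direction turned with 1 cluster, to -0.77 without Fxyd2/Kcnk2 (edgeR adjusted p = 0.00346), while without Corin/Otor it was 1.06 (edgeR adjusted p = 0.0255). Rspo3 had 33.6 ± 26.4 against 53.7 ± 12.02 CPM (n = 4 each, -0.85, 95% interval -1.73 to 0.03, edgeR adjusted p = 0.202) and changed by -1.98 without replicate 3 (edgeR adjusted p = 0.00202), the library with 166 of the 176 Slc47a1/Slc4a10 cells.

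In HC-like cells (222 cochlear and 2004 vestibular cells) the 10 genes were scarce, and only Dkk3 and Axin2 passed the filter on low counts. Neither was called by edgeR (0 of 2, 1 of 2 at an unadjusted p under 0.05), where 37.3% of 8930 genes were called, 17% higher in the cochlea and 20.4% higher in the vestibule. Dkk3 had 14.1 ± 7.97 against 9.40 ± 3.36 CPM (n = 4 each, log2 fold change 0.64, 95% interval -0.19 to 1.46, edgeR adjusted p = 0.23) and Axin2 9.96 ± 9.43 against 21.9 ± 3.19 CPM (n = 4 each, -1.01, 95% interval -1.87 to -0.16, edgeR adjusted p = 0.0581). The Dkk3 level of vestibular HC-like cells was below that of vestibular macrophage-like cells (29.1 CPM), while cochlear macrophage-like cells held 0.316 CPM. Axin2 passed without replicate 1 (-1.36, edgeR adjusted p = 0.0172), without the filter on low counts (0.024) and with the mixed cluster described next (-1.54, 0.00798), and its adjusted p ranged up to 0.184 over the alternatives. It also passed with the replicate number as a block, as given in the closing section.

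Other tools called low genes in HC-like cells. DESeq2, which keeps genes that the filter removed, called 3 of 9: Lgr6 (14.4 ± 11.8 CPM in the cochlea against 1.33 ± 0.756 CPM, n = 4 each), Lgr5 (12.05 ± 6.93 against 3.89 ± 0.798 CPM, n = 4 each) and Rspo3 (1.39 ± 2.77 against 17.5 ± 7.98 CPM, n = 4 each). Rspo3 in vestibular HC-like cells reached 50.1 ± 19.7 CPM (SD, n = 4) in the Thsd7b/Rasd2 cluster, above the 3.59 CPM of macrophage-like cells. With the mixed Tectb/Corin cluster kept among the HCs, 273 cells with markers of HCs and supporting cells and a median of 11337 UMIs, Dkk3 turned to -3.61 (edgeR adjusted p = 9.66e-07). That cluster held 37.9% of all vestibular Dkk3 UMIs.

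**Figure D4:**
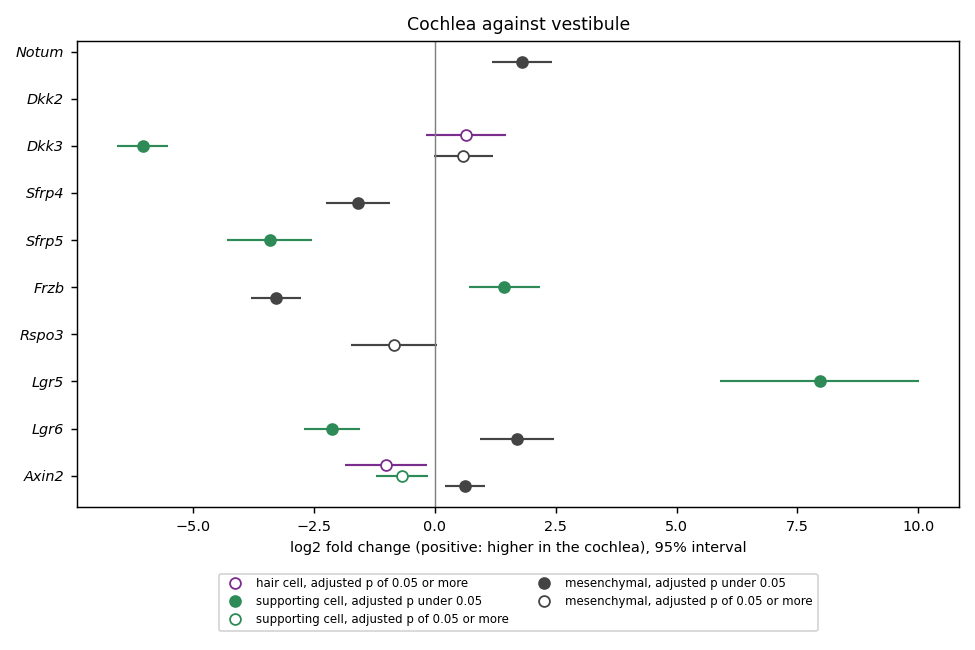
Log2 fold change of the cochlea against the vestibule (x axis, positive: higher in the cochlea; bars, 95% interval) for each gene (y axis) in hair-cell-like (purple), supporting-cell-like (green) and mesenchymal cells (grey); filled points have an adjusted p under 0.05, and genes too low for the test have no point. Lgr6 lies left of 0 in supporting-cell-like and right of it in mesenchymal cells, Frzb the reverse; the Lgr5 point is a fitted value against a class with no UMI.

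The other genes of the pathway were read from 76 symbols. In the cochlea, 10 of the 55 that passed the filter were higher in epithelial and 24 in mesenchymal cells, with a median log2 fold change of -0.36 and beside 28.2% and 27.2% of all genes. Over all genes tested the median was between -0.03 and 0.00 in each comparison. Among 16 receptors and co-receptors, all tested, 3 were higher in epithelial and 8 in mesenchymal cells, and among 10 targets 8 were tested, none higher in epithelial and 6 higher in mesenchymal cells, beside the same shares of all genes. The largest changes were the ligand genes Wnt7a (19.5 against 0.206 CPM) and Wnt7b (51.1 against 1.35 CPM) and Rspo2, another R-spondin (18.1 CPM against no UMI), in the epithelium, and the antagonist Wif1 (0.0365 against 28.5 CPM), Wnt6 (0.257 against 52.8 CPM) and the receptor Ror2 (no UMI against 8.14 CPM) in the mesenchyme. Genes with no or almost no UMI in the lower class, such as Rspo2, Ror2 and Wif1, passed the filter only through the other class. Their calls therefore add no separate support, here and for such genes of the list in the other comparisons. By its CPM, Rspo2 was epithelial in the cochlea while Rspo3 was mesenchymal.

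In the vestibule 18 of 54 tested genes were higher in epithelial and 17 in mesenchymal cells (median 0.07), beside 23.7% and 20.9% of all genes. The epithelium led in the antagonist Sfrp1 (416 against 8.13 CPM) and the ligand genes Wnt3 (21.0 against 0.106 CPM) and Wnt7a (25.9 against 0.581 CPM), and the mesenchyme in Wnt6 (4.07 against 71.4 CPM), Wnt16 (0.684 against 15.2 CPM) and the receptor Fzd9 (9.25 against 106 CPM). Among the secreted or surface inhibitors, 4 were higher in epithelial and 2 in mesenchymal cells, of 7 tested.

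Between the organs, mesenchymal cells had 14 Wnt genes higher in the cochlea and 10 higher in the vestibule, of 52 tested (median 0.24), beside 9.08% and 8.66% of all genes. Cochlear mesenchyme was higher in the feedback target Nkd2 (60.4 against 5.99 CPM), Fzd1 (94.1 against 8.98 CPM) and the inhibitor Trabd2b (59.97 against 8.82 CPM), and vestibular mesenchyme in Wnt2b (3.89 against 27.0 CPM), Fzd9 (24.5 against 106 CPM) and Wnt5a (274 against 831 CPM). Of 8 targets tested, 4 were higher in the cochlea and none in the vestibule, beside the same shares of all genes. Supporting-cell-like cells had 3 genes higher in the cochlea, Tcf7l2 (49.3 against 1.24 CPM), Fzd2 and Fzd9, and 12 higher in the vestibule, with Sfrp2 (0.0724 against 43.4 CPM), Ror1 and Nkd1 (2.56 against 25.8 CPM) changing most, of 37 tested (median -0.49), beside 12% and 16.1% of all genes. HC-like cells had 6 and 3, of 25 tested (median 0.16), beside 17% and 20.4% of all genes, so that the share called in either direction was near that of all genes (37.3%). They were led by Fzd4 (205 against 7.47 CPM), Wnt7b and Rnf43 in the cochlea and by Nkd1 (1.35 against 19.9 CPM), Wnt5a (13.03 against 130 CPM) and Sfrp1 (51.8 against 84.7 CPM) in the vestibule. Wnt5a was at 11.9 ± 14.2 CPM in cochlear and 143 ± 143 CPM (SD, n = 4 each) in vestibular macrophage-like cells. Its levels in HC-like cells were not separated from these, and the part of free RNA in them was not tested. For Nkd1 and Sfrp1 the vestibular macrophage-like cells held 1.73 and 3.21 CPM, while vestibular nonsensory epithelial cells held 36.0 and 416 CPM, and the part of free RNA in these differences was not tested.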

How the data were processed

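Single-cell libraries of both organs were used as the authors deposited them: raw UMI counts per gene and called cell barcode, made with Cell Ranger on mm10 and not normalized (headers name version 5.0.1 for replicate 1 and 6.1.2 for the others; the submitters' processing notes name 6.1.2). Barcodes and gene symbols were read from the deposited tables. Kept cells had 200 or more genes, 1000 or more UMIs and less than 25% mitochondrial UMIs. In Seurat 5.3.0 (R 4.3.3) each organ was log-normalized and clustered (2000 variable genes, 30 components, resolution 1). No doublet caller was run and no doublets were removed.

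A cluster marker counted as enriched in at least 25% of cells at a log2 fold of at least 1; the class rules followed a first look at the clusters. HC-like clusters had at least 3 enriched HC markers, mesenchymal ones at least 3 markers, and epithelial ones at least 4 of 6 epithelial markers in 10% of cells. The mixed cluster and 2 vestibular clusters with 5 or more cells in only 1 library were set aside. The genes and lists were chosen with earlier results of these data known; all 10 are named, with the 3 most similar genes each and up to 3 Wnt genes per direction and comparison.

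Sums of UMIs per library and class, from 5 or more cells, entered edgeR 4.0.16 (TMM, filterByExpr, glmQLFTest); DESeq2 1.42.0 was an alternative. SEs and intervals of log2 fold changes come from the F statistic. In simulated sums where 200 genes differed 4-fold, 100% of those tested were recovered in each of the 5 comparisons, and 2.91% to 5.29% of calls were false. Nothing says whether same-numbered libraries of the 2 organs came from the same mice. Deviations of same-numbered mesenchymal sums correlated at 0.136 to 0.180, over the limit of 0.1 in every pair, so the numbers were taken to pair these samples; in HC-like and supporting-cell-like sums not every pair did (lowest 0.0478 and 0.0715). Intervals for shares of cells are exact binomial ones and, like the limit of 3 UMIs for a count of 0, cover counting error only. Gene positions were read from GENCODE M21 (GRCm38). The alternatives of the closing section included 4 chosen after the data had been seen (the mixed cluster or the clusters of 1 library kept, and Corin/Otor or Fxyd2/Kcnk2 left out); those of the difference between the organs in the epithelial change were also chosen then. Nothing states how independent the pools are, so p-values measure the spread between these libraries only.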

Additional observations from a re-analysis of the deposited data

Results flagged for a closer look

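The change from mesenchymal to epithelial cells differed between the organs for 7 of the 10 genes, in an edgeR test of the difference itself (organ by class, library as a block, chosen after the results above were seen), where 30.6% of 11817 genes were called. As cochlea minus vestibule on the log2 scale, the difference was -7.27 for Rspo3 (SE 0.47, edgeR adjusted p = 2.75e-09), -5.15 for Dkk3 (SE 0.26), -3.20 for Lgr6 (SE 0.30), -2.57 for Notum (SE 0.70, edgeR adjusted p = 0.00924), -2.29 for Sfrp4 (SE 0.68, edgeR adjusted p = 0.0161) and -1.26 for Axin2 (SE 0.23). For Frzb it was 4.12 (SE 0.24), the only called gene with a more epithelial balance in the cochlea. Sfrp5 (-2.52, edgeR adjusted p = 0.0543), Dkk2 (-0.83, edgeR adjusted p = 0.371) and Lgr5 (-0.59, edgeR adjusted p = 0.682) did not pass. Notum lost its call without Corin/Otor (edgeR adjusted p = 0.258) and without replicate 3 (0.391) or 4 (0.0605), and Sfrp4 without replicate 3 (0.425). Sfrp5 gained one without Corin/Otor (0.0236), without Fxyd2/Kcnk2 (0.0313) and without replicate 4 (0.0483) or 5 (0.04). The classes are made of different clusters in the 2 organs.

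Among 52 groups of 4 libraries with at least 20 UMIs of the gene, 5 had a library set apart by Dixon's ratio, which chance gives in about 1 in 20 groups. In replicate 1, Lgr5 was at 53.3 CPM in cochlear supporting-cell-like cells (others 22.3 to 26.7) and 39.3 CPM in the whole nonsensory epithelial class (others 12.6 to 15.5), the same 38 UMIs in both. Lgr6 was at 31.9 CPM in cochlear HC-like cells of replicate 1 (others 6.41 to 10.3; 10 UMIs), and Axin2 at 26.6 CPM in vestibular HC-like cells of replicate 1 (others 19.7 to 20.6). Dkk3 was at 7.68 CPM in cochlear supporting-cell-like cells of replicate 4 (others 11.9 to 12.6).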

How the results depend on the processing

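Of the recomputed log2 fold changes of the 5 comparisons, 397 kept their direction and their side of the threshold, 12 lost and 11 gained a call, and 2 reversed: Dkk3 in HC-like cells, to -3.61 with the mixed cluster kept, and Dkk3 between mesenchymal cells, to -0.77 without Fxyd2/Kcnk2. The number of the 10 genes called in HC-like cells (0) became 3 by DESeq2, 6 without the filter on low counts, 1 with the replicate block and 3 with the mixed cluster, and it ranged from 0 to 2 with 1 replicate left out (2 without replicate 1). In mesenchymal cells 5 became 8 without the filter, which leaves more genes tested. The other 60 recomputed counts of these 5 comparisons were within 1.5 times, among them 6 with the block against 5 between supporting-cell-like cells, 5 against 5 between mesenchymal cells, and 9 against 9 and 6 against 8 without it in the epithelial comparisons of the cochlea and vestibule. The block calls Axin2 in HC-like and supporting-cell-like cells (edgeR adjusted p = 0.0457 and 0.00938); there not every same-numbered pair correlated at over 0.1, although each of the 8 samples correlated best with its own number. For the difference between the organs in the epithelial change, 7 genes called became 5 to 8 with 1 replicate left out, and Lgr5, not called, ranged from -0.93 to 2.86 with 1 replicate left out (2.86 without replicate 3) and was 0.63 without Corin/Otor. Over all genes, the 2305 calls between supporting-cell-like cells became 1399 without replicate 3 and 3654 without the filter, and the 1854 between mesenchymal cells 1214 without replicate 3, while the 3616 of the difference between the organs became 2263. The cause was not tested. Thinning to 1000 UMIs lowered the shares of cells with a UMI in the first cluster of each order: Notum from 73.2% to 14.9%, Dkk2 from 70.6% to 43.9%, Dkk3 from 65.9% to 43.8%, Sfrp4 from 60.8% to 46.6%, Sfrp5 from 34.6% to 23.5%, Rspo3 from 58.6% to 45.3%, Lgr5 from 7.63% to 3.05%, Lgr6 from 15.8% to 8.54%, Axin2 from 79.6% to 19.1% and Frzb from 42.6% to 13.9%. Depth limits Lgr5, with 416 UMIs in all kept cells, and every value of replicate 1, which has 571 and 867 cells.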
